A study of Mus musculus with 2 samples.

Results

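The genes of the aminoacyl-tRNA synthetases were followed in MEL, an established mouse cell line grown from an erythroleukemia. They were chosen by name and not by level. A protein-coding gene entered when its mouse symbol was a single capital letter followed by ars, with or without a closing 1 or 2, or was Eprs, Farsa, Farsb or Tarsl2. This gave 38 of the 43346 genes measured, of which 21474 are protein-coding. Of the 38 genes, 19 encode cytosolic enzymes, 17 encode mitochondrial enzymes, and Gars and Kars each supply both compartments. Polyadenylated RNA was sequenced from single ends in 2 libraries, which the labels call biological replicates 1 and 2 of this line. The labels name no treatment, second condition or time point, so all comparisons are between genes or between the replicates, and no p-value is given.

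An aminoacyl-tRNA synthetase joins an amino acid to the tRNAs that carry its anticodons, and each codon is read correctly only if this loading step was correct. The enzymes fall into unrelated structural classes, I and II, and several of them also remove amino acids that were loaded by mistake. Mitochondria translate the few messages of their own genome with a separate set of tRNAs, and most of the enzymes that load these tRNAs come from nuclear genes of their own, marked with a 2 in the symbol. Glycine and lysine are exceptions, for which a single gene makes the enzyme of both compartments, and glutamine has no mitochondrial enzyme of its own. In the cytosol, several synthetases sit together with scaffold proteins in the multi-synthetase complex. A maturing erythroid cell makes very large amounts of hemoglobin chains and so draws heavily on loaded tRNA.

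Levels are given in the authors' deposited TPM, a relative transcript abundance that corrects for transcript length and has the same sum in each library. Where a gene is followed by 2 values, the first is replicate 1 and the second replicate 2. The libraries held 67735380 and 79923143 expected counts on genes, and each synthetase gene had between 541 and 113165 counts per library. Of the 11 erythroid markers examined, among them Gata1, Klf1 and the adult globin genes, 11 reached 10 TPM in both replicates. The 11 markers of lymphoid, myeloid, stromal, endothelial and epithelial cells were all under 1 TPM, with a summed level of 0.93 and 1.61 TPM and with Cd3e at 0 counts in both.

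All 38 synthetase genes reached 1 TPM in both replicates, a level reached by 46.8% of protein-coding genes. At 10 TPM the count was 33 of 38, against 31.4% of protein-coding genes. Even the lowest member lay at percentile 59.9 of all protein-coding genes by mean TPM. The median over the 19 cytosolic genes was 138.6 and 134.8 TPM, and that over the 17 mitochondrial genes was 27.7 and 25.3 TPM. For comparison, the 10045 protein-coding genes that reached 1 TPM in both libraries had a median of 22.3 and 22.2 TPM. The cytosolic over the mitochondrial median gave a log2 ratio of 2.32 in replicate 1 and 2.41 in replicate 2, a mean of 2.37 ± 0.0645 (SD, n = 2) or 5.16-fold. Together the 38 genes held 0.473% of TPM in replicate 1 and 0.407% in replicate 2, of which 0.314% and 0.265% belonged to the cytosolic genes.

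**Figure D1:**
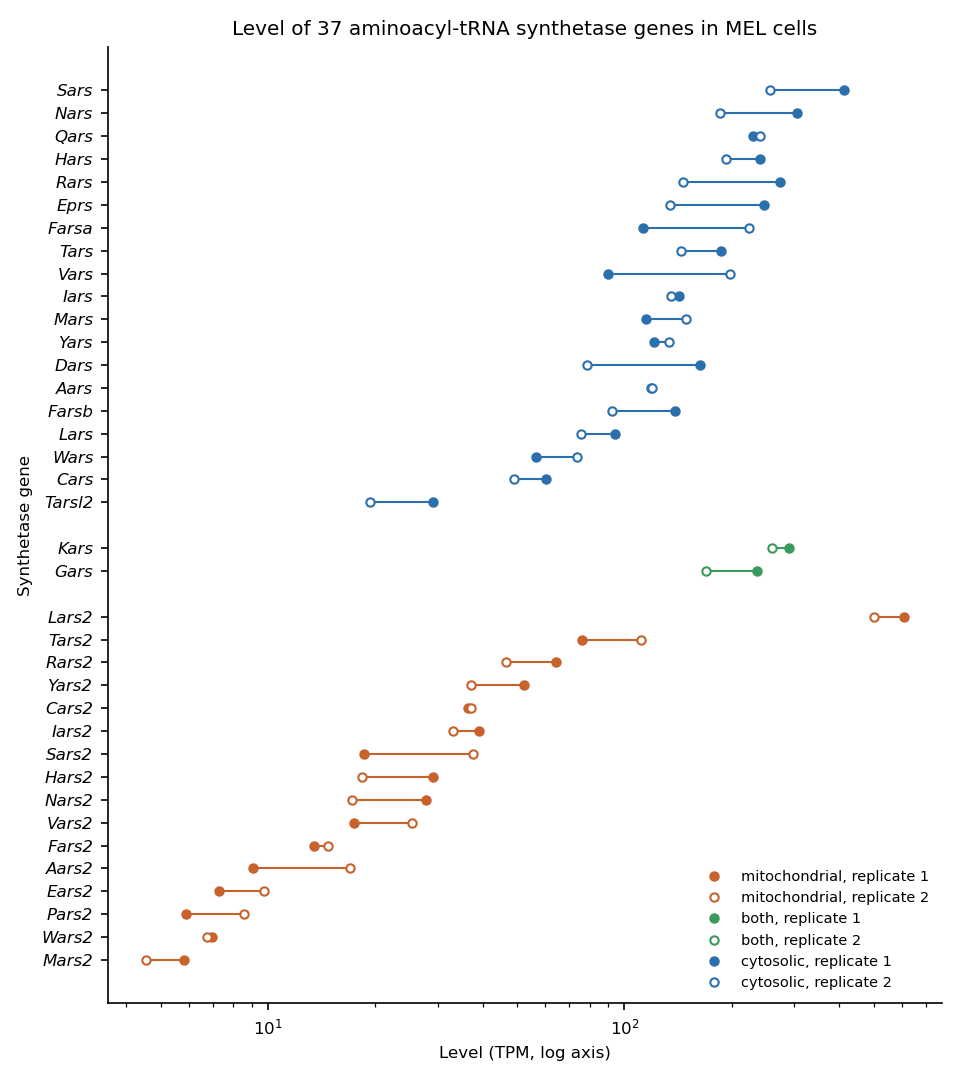
Level of 37 synthetase genes in TPM (log axis), with filled points for replicate 1, open points for replicate 2 and a line between them; genes are ordered by mean within the compartment of their enzyme. Most mitochondrial genes lie below 60 TPM and most cytosolic genes above 100 TPM, while Lars2 lies above every other gene.

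The cytosolic genes were led by Sars, the seryl-tRNA synthetase gene (ENSMUSG00000068739.9, chromosome 3, 108424865-108445209 on mm10). It stood at 413 and 256 TPM, a mean of 335 ± 111 (SD, n = 2). This sum includes a short transcript, Sars-204, at 189 and 25.5 TPM. The longer Sars-202 alone, at 222 and 224 TPM, lay below Nars in replicate 1 and below Qars in replicate 2. The enzyme of Sars loads serine and also primes the tRNA of selenocysteine. Nars, for asparagine, stood at 306 and 186 TPM, and Qars, for glutamine, at 230 and 240 TPM. Replicate 1 was the higher library for Sars and Nars, and for Qars the replicates were close. Within each replicate Sars was the highest of the cytosolic genes. Across replicates its range overlapped those of Nars and of Rars, at 274 and 146 TPM. Both replicates of Sars exceeded those of Qars, of Hars at 241 and 193 TPM and of Eprs at 246 and 135. Among Nars, Qars, Hars, Rars and Eprs the ranges across replicates overlapped. Within each replicate Nars exceeded Rars and Rars exceeded Eprs. The places of Qars and Hars changed between replicates, so the full order is not fixed by these data. Eprs encodes a fused enzyme that loads both glutamate and proline.

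At the low end of the cytosolic genes, Tarsl2, which encodes a second threonyl-tRNA synthetase, stood at 29 and 19.3 TPM. Tars, the main gene for threonine, stood at 187 and 144 TPM, which is 6.91-fold higher (log2 ratio 2.79 ± 0.15, SD, n = 2). Above Tarsl2 came Cars, for cysteine, at 60.2 and 49 TPM and Wars, for tryptophan, at 56.3 and 73.6 TPM. The levels of Cars and Wars overlapped between libraries, while both replicates of Tarsl2 lay below both replicates of every other cytosolic gene. Lars, for leucine, followed at 94 and 75.7 TPM. Without Tarsl2 the cytosolic genes ran from a mean of 54.6 TPM for Cars to 335 TPM for Sars.

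Phenylalanyl-tRNA synthetase is built from 2 kinds of subunit, and their genes showed no fixed order. Farsa, for the catalytic subunit, stood at 113 and 224 TPM. Farsb, for the other subunit, stood at 139 and 92.6 TPM. Farsb was thus the higher of them in replicate 1 and Farsa in replicate 2 (log2 ratio of Farsb over Farsa 0.30 and -1.28).

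Both genes that serve cytosol and mitochondria were high. Kars, for lysine (ENSMUSG00000031948.9, chromosome 8, 111993443-112011323), stood at 289 and 260 TPM, and Gars, for glycine (chromosome 6, 55038007-55079500), at 235 and 170 TPM. These levels lay within the range of the cytosolic genes and above every mitochondrial gene except Lars2. Kars makes its compartment forms by alternative splicing. The transcript Kars-201, with a coding part of 1785 bases, held 87% of the gene's TPM in replicate 1 and 81.2% in replicate 2. Kars-202, with a longer coding part of 1872 bases, held 8.73% and 14.6%. Kars-203, with a coding part of the same length as Kars-202, held 4.23% and 4.14%. Gars makes its forms from different start codons, and only 1 transcript of it was listed, so its TPM cannot be divided between compartments.

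Among the mitochondrial genes, Lars2, for leucine (ENSMUSG00000035202.7, chromosome 9, 123366927-123462666), stood apart from the rest. It had 609 and 501 TPM, a mean of 555 ± 76.3 (SD, n = 2), the highest of all 38 genes and above the cytosolic Sars in each replicate. This was 26.3-fold and 22.9-fold the median of the other 16 mitochondrial genes, and Lars2 held 56.9% and 50.7% of the summed TPM of the mitochondrial genes. Without it the mitochondrial median was 23.2 and 21.8 TPM. The next highest was Tars2, for threonine, at 76.2 and 111 TPM, and both replicates of Lars2 lay far above it.

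A stretch of the Lars2 transcript was also found in other transcripts. In Lars2-201, whose coding part ends at base 2905 of 3894, 42 of 3864 windows of 31 bases occurred in a transcript of another gene, and all 42 lay in the 3′ UTR, between bases 3172 and 3329. They matched AA474408 at 1.73 and 1.23 TPM and Gm15564 at 37.4 and 25 TPM. The far more abundant noncoding RNA Gm42418, at 14543 and 8242 TPM, shared none of them. Sequences outside this transcript set, ribosomal RNA genes among them, were not compared with Lars2, so whether all of its counts come from its own message was not tested. How many of the Lars2 reads fell in this stretch was not tested, since the files give no position within a gene. The authors' posterior SD of the Lars2 count was 6.89 reads of 107681 in replicate 1, so within the listed transcripts the assignment of its reads was nearly fixed.

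The lowest mitochondrial genes were Mars2, for methionine, at 5.81 and 4.54 TPM, Wars2, for tryptophan, at 6.96 and 6.74, and Pars2, for proline, at 5.9 and 8.55 TPM. By TPM, both replicates of Mars2 lay below both replicates of every other synthetase gene. In replicate 1 the authors' TPM interval of Mars2 (5.45 to 5.86) lay inside that of Pars2 (5.12 to 6.68). TPM divides by length, and the only listed transcript of Mars2 has 11294 bases, of which 1758 are coding. Its counts, 3010 and 3009, exceeded those of Pars2 (541 and 1066) and Wars2 (1020 and 1274). By TPM, Pars2 overlapped Wars2 and also Ears2, for glutamate, at 7.31 and 9.72 TPM. Within each replicate Pars2 lay below Ears2. Ears2 also loads the mitochondrial glutamine tRNA, with glutamate that is then converted in place by an amidotransferase. All 3 subunit genes of that amidotransferase lay between 10.1 and 24.8 TPM: Qrsl1 had 15.2 and 12.9 TPM, Gatb 10.1 and 12.4, and Gatc 24.8 and 24.4. Of the 17 mitochondrial genes, 13 had a mean below that of Cars, the lowest cytosolic gene other than Tarsl2. Lars2, Tars2 and Rars2 were among the exceptions.

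For 17 amino acids a cytosolic and a mitochondrial gene could be set side by side, with Eprs used for both glutamate and proline and the catalytic subunit gene Farsa for phenylalanine. The log2 ratio was taken in each replicate with a pseudocount of 0.1 TPM. It was compared with 1.29 (2.44-fold), the size under which 95% of the same 10045 protein-coding genes differed between replicates on the log2 scale. The cytosolic gene was the higher for 16 of 17 amino acids, and for these 16 its lower replicate exceeded the higher replicate of its partner. For 13 the mean ratio was beyond the replicate spread, with the same sign in both replicates. This limit describes differences between libraries, so it does not cover a bias between genes that both libraries share. Median GC content was 48.8% for the cytosolic and 53.8% for the mitochondrial genes, and its part in these ratios was not tested.

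The widest ratios were those of Eprs over Pars2, 25.3-fold (log2 4.66 ± 0.99, SD, n = 2), and of Mars over Mars2, 25-fold (4.64 ± 0.51). Mars, the cytosolic gene for methionine, stood at 115 and 149 TPM. The 621-base Mars-203 held 37% and 31.8% of this TPM, and Mars2 was counted on a transcript of 11294 bases. Sars exceeded Sars2, at 18.6 and 37.5 TPM, by 12.3-fold (3.62 ± 1.20). Nars exceeded Nars2, at 27.7 and 17.2 TPM, by 10.9-fold with little spread between replicates (3.44 ± 0.02). Farsa over Fars2 (11.2-fold), Aars over Aars2 (9.51-fold), Hars over Hars2 (9.29-fold) and Wars over Wars2 (9.28-fold) lay close together by gene TPM. With protein-coding transcripts only, these ratios were further apart, from a log2 ratio of 2.77 for Farsa to 4.19 for Wars. Nars over Nars2 then had a log2 ratio of 4.96. On these transcripts Nars had 306 and 186 TPM and Nars2 7.93 and 7.22, so the small spread seen by gene TPM was not kept. The smallest ratios beyond the spread were those of Iars over Iars2 (3.85-fold), Rars over Rars2 (3.66-fold) and Yars over Yars2 (2.87-fold). On protein-coding transcripts alone, Yars over Yars2 had a log2 ratio of 0.96, within the spread.

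For threonine and cysteine the ratio lay within the replicate spread. Tars exceeded Tars2 by a log2 ratio of 0.83 ± 0.65, and Cars exceeded Cars2, at 36.3 and 37 TPM, by 0.57 ± 0.23. Leucine alone showed the opposite order, with Lars2 6.54-fold above Lars (log2 ratio of Lars over Lars2 -2.71 ± 0.02). The ratio was nearly the same in both replicates, at -2.70 and -2.72.

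**Figure D2:**
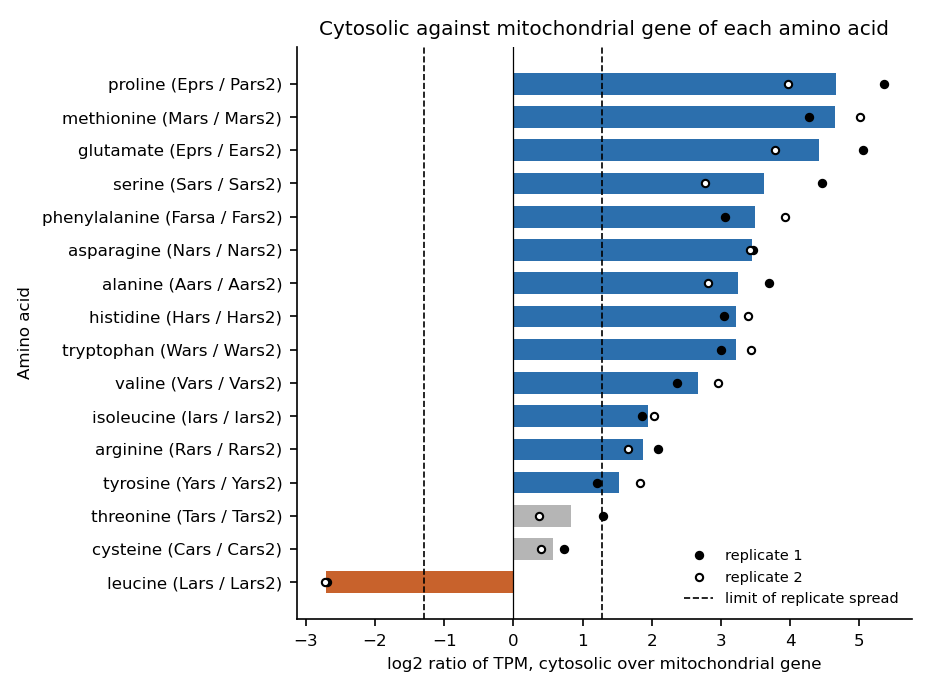
Bars give the mean log2 ratio of TPM of the cytosolic over the mitochondrial gene for each of 16 amino acids, points the ratio in each replicate, and dashed lines the limit of the replicate spread (1.29 in either direction). Blue bars (13) exceed the limit on the cytosolic side, grey bars (2) lie within it and the orange bar, leucine, lies beyond it on the mitochondrial side.

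The 8 synthetase genes of the multi-synthetase complex were Kars, Qars, Rars, Eprs, Iars, Mars, Dars and Lars. Their median was 197 and 141 TPM, and that of the 13 cytosolic or shared genes outside the complex was 121 and 144 TPM. The order of these medians differed between replicates. The scaffold genes of the complex had levels of the same size: Aimp1 stood at 131 and 112 TPM, Aimp2 at 101 and 107, and Eef1e1 at 173 and 126. By structural class, the 9 class I genes of the cytosol had medians of 115 and 135 TPM and the 11 class II genes, Gars and Kars included, 187 and 170, with Eprs, which holds both classes, left out.

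A list of 18 other genes held the 3 scaffold genes above and genes that act on loaded or unloaded tRNA. Of these, 18 of 18 reached 1 TPM and 17 of 18 reached 10 TPM in both replicates (background 46.8% and 31.4% of protein-coding genes). Trnt1, whose enzyme adds the CCA end to which the amino acid is joined, stood at 102 and 58.7 TPM. Among the deacylase and editing genes, Dtd2 stood at 18.5 and 17 TPM and Aarsd1 at 47.2 and 60.8. Pstk and Sepsecs, which turn serine on its tRNA into selenocysteine, stood at 41.7 and 44.2 TPM and at 13.9 and 11.3 TPM. Mtfmt, which formylates the initiator methionine of mitochondria, stood at 13 and 10.7 TPM. The factors that carry loaded tRNA to the ribosome lay above the medians of the synthetase genes: the mitochondrial Tufm had 145 and 206 TPM, against the mitochondrial medians of 27.7 and 25.3, and the cytosolic Eef1a1 had 11657 and 8962 TPM.

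The transcript tables were used to see how much of each gene's TPM lay on transcripts that GENCODE M21 classes as protein-coding. In the median synthetase gene this was 97%, and in the median of the 10045 protein-coding genes above it was 97.2%. For 32 of 38 genes the share was over 50% in both replicates (background 86.2%), and for 4 of 38 it was under 50% in both (background 7.54%). Qars, Nars2 and Wars2 were among these 4. A short transcript takes a large share of TPM with few reads, because TPM divides by length, so these shares are not shares of reads.

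At Nars2 a noncoding transcript of 588 bases led with 50.9% and 29.2%. The main coding transcript of Wars2 held 44.6% and 47.7%. Rars2 stood near the limit, with 46.9% and 52.2% on protein-coding transcripts.

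Qars (chromosome 9, 108507706-108515941) was the cytosolic gene with the smallest coding share, 21.6% in replicate 1 and 24.3% in replicate 2. This share came to 49.6 and 58.5 TPM, so the place of Qars near the top of the cytosolic genes rests on its other transcripts. Its TPM was divided among 18 listed transcripts. The retained-intron transcript Qars-215, of 600 bases, led in replicate 1 with 28.9% and held 8.12% in replicate 2, where a transcript without a match in M21 led with 22.4%. Retained-intron transcripts held 42.8% and 52.7% of the TPM of Vars, for valine, and 39.9% and 27.4% of that of Cars. At Sars the transcript Sars-202, with 1608 coding bases, stood at 222 and 224 TPM. The short Sars-204, of 637 bases, stood at 189 and 25.5 TPM, so the libraries differed at Sars by this transcript and not by Sars-202. At Iars, for isoleucine, the leading transcript changed from Iars-206 (95% of TPM in replicate 1) to Iars-201 (54.7% in replicate 2). Both have coding parts of 3786 bases.

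**Figure D3:**
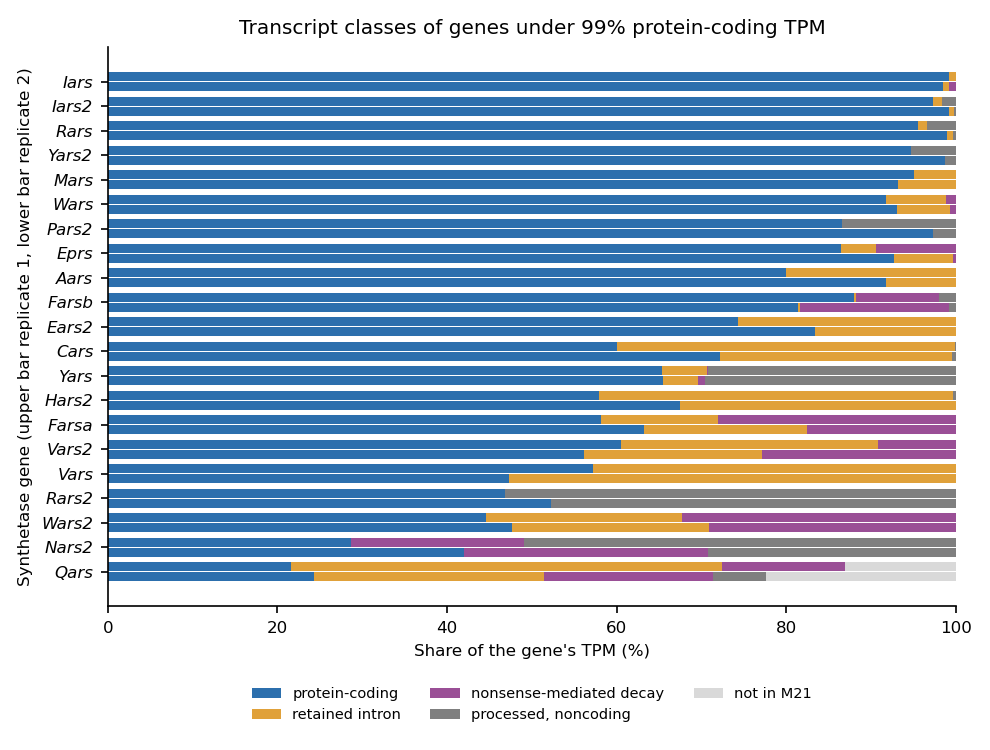
Share of each gene's TPM (in %) on transcripts of each class, with the upper bar for replicate 1 and the lower for replicate 2. Shown are synthetase genes with under 99% of TPM on protein-coding transcripts, except where values are not reported here. Qars, at the foot of those shown, has 21.6% and 24.3% on protein-coding transcripts, and Nars2 has 28.6% and 42%.

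The use of strand in counting is not given in the sources used here, and 10 of the 38 genes overlap a protein-coding gene on the opposite strand. Hars and Hars2 start head to head on chromosome 18 and overlap by 198 bases. Iars2 overlaps Rab3gap2, at 33.1 and 30.6 TPM, by 2034 bases, and Cars2 overlaps Naxd, at 26.4 and 51.7 TPM, by 984 bases. Mars overlaps Ddit3, the gene of the stress factor CHOP, by 68 bases at its end. Windows of 31 bases shared with another gene made up 36.8% of the leading transcript of Iars2, 22.7% of that of Aars, which in M21 runs through Exosc6, and 17.7% of that of Iars, nearly all of it shared with the processed pseudogene Gm4849 at 0.23 and 0.15 TPM. These shares describe the sequence and not the error of the counts. The authors' posterior SD was 4.41 of 8104 reads for Iars2, 0.75 of 24881 for Aars and 2.08 of 28509 for Iars in replicate 1. It covers only the division of reads among the features measured. Exosc6 was not among the genes measured, so the value for Aars cannot show whether reads of Exosc6 were counted there. For 20 of the 38 genes no such window was found.

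Many synthetase genes are known targets of ATF4, the transcription factor that cells make when amino acids or heme run short. ATF4 and its C/EBP partners bind a sequence called the CARE, and MYC and its partners bind the E-box. RefSeq promoters on GRCm38.p6, from 250 bases before to 50 after a transcript start, matched 28 of the 38 genes, 12 cytosolic, 2 of both compartments and 14 mitochondrial. Among the genes not matched were Cars, Hars, Lars, Nars, Rars, Vars, Wars, Hars2 and Pars2. The CARE was searched as TGATGNAA and the E-box as CACGTG, each on both strands, and no matches overlapped. Both were chosen with the data at hand, and ATTGGCTCA, tried with them, was in 0 of the 28 (0.35% of all promoters).

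TGATGNAA was found in 5 of the 28 genes, against 3.97% of all 32851 promoters. They were the cytosolic genes Aars, Iars, Tars and Yars and the shared gene Gars, and none of the 14 mitochondrial genes had it. CACGTG was found in Aars, Iars, Tars, Farsb and the mitochondrial Ears2, against 7.15% of all promoters. Aars, Iars and Tars held both, as did 0.201% of all promoters. The members were counted by gene and the background by promoter, so these shares are not in the same unit. The 5 genes with TGATGNAA had means from 119 to 202 TPM (median 139), and the other 9 cytosolic or shared genes with a promoter had means from 24.2 to 335 TPM (median 169), so the ranges overlapped. The sequences of the 5 genes are shown from 150 bases before to 25 after the start, with that of Iars2, the mitochondrial partner of Iars, for contrast. Capitals mark TGATGNAA, or its reverse complement where it lies on the other strand, and CACGTG.
Aars, chr8:111033692-111033866, plus strand: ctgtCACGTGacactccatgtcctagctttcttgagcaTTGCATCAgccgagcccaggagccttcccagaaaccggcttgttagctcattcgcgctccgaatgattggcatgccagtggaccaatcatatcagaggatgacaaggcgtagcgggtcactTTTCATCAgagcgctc
Iars, chr13:49681980-49682154, plus strand: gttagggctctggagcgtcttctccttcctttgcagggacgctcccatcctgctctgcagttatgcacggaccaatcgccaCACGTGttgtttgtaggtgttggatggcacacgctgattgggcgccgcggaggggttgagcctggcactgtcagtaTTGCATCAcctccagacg
Tars, chr15:11399634-11399808, minus strand: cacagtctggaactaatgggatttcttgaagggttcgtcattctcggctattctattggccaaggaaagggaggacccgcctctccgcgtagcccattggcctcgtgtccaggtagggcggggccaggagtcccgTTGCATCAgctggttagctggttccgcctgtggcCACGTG
Gars, chr6:55037851-55038025, plus strand: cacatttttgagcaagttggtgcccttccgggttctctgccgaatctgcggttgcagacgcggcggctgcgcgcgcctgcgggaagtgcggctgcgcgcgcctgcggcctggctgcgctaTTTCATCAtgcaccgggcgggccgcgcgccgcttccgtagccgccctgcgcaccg
Yars, chr4:129189753-129189927, plus strand: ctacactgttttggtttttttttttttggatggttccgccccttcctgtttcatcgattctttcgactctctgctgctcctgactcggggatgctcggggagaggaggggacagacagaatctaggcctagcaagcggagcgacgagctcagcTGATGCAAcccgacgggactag
Iars2, chr1:185329377-185329551, minus strand: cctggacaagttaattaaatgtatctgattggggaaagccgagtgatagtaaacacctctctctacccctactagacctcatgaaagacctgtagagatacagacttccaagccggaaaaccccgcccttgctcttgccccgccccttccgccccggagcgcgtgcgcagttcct

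In Aars 1 match to TGATGNAA begins 112 bases before the start and the other at base 10 after it, with CACGTG 146 bases before. In Iars the match begins at base 8 after the start, with CACGTG 69 bases before, and in Tars it begins 15 bases before the start, with CACGTG at base 20 after. In Gars it begins 30 bases before and in Yars at base 4 after the start. Of the matches to TGATGNAA, all but the more distant one of Aars thus begin within 30 bases of the start. Iars2 holds none of these letters in the window shown. A match describes the sequence and does not show that a factor binds there.

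**Figure D4:**
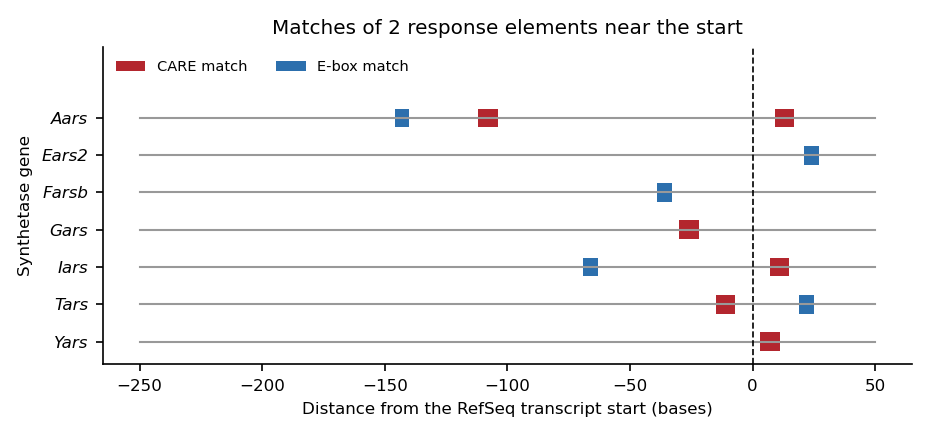
Position of each match in the 300 bases around the RefSeq start (dashed line at 0) of the 7 synthetase genes that have one, with CARE matches in red and E-box matches in blue, drawn to length. CARE matches begin within 30 bases of the start in Gars, Iars, Tars and Yars, and Aars has a second one 112 bases before it.

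Between the replicates, counts were compared as the log2 ratio of replicate 2 over replicate 1 after TMM scaling. Sars2, for mitochondrial serine (chromosome 7, 28741992-28753871), was higher in replicate 2 by 2.01-fold, with 1600 and 4120 counts. Dars, for cytosolic aspartate (chromosome 1, 128363707-128417368), at 163 and 78.4 TPM, was higher in replicate 1 by 2.09-fold, with 15989 and 9823 counts. No other synthetase gene reached 2-fold, so 1 of 38 was called in each direction, against 8.01% of all 15251 genes tested higher in replicate 2, 12.4% higher in replicate 1 and 20.4% in either direction. Among protein-coding genes at 10 TPM in both libraries these shares were 4.45% and 7.77%. Over the 38 genes the median log2 ratio was -0.13, with 15 higher in replicate 2 and 23 in replicate 1, and over all genes tested it was 0.02. Farsa (1.87-fold), Aars2 (1.86-fold) and Vars (1.78-fold) came closest on the side of replicate 2, and Rars (1.83-fold) and Eprs (1.70-fold) on that of replicate 1. This compares 2 libraries and not 2 conditions. Of the 11 erythroid markers, 4 (Gata1, Epor, Hba-a1 and Hbb-bs) were 2-fold or more higher in replicate 2, Tfrc was lower there at 178 and 80.7 TPM, and the summed level of the 11 was 1365 and 2174 TPM; their part in the differences of the synthetase genes was not tested.

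The ratio was higher in genes of higher GC content. Of the 19 synthetase genes with the lowest GC content (38.8% to 50.4% of the leading transcript), 1 had a ratio above 0, and their median log2 ratio was -0.48. Of the 19 with the highest (50.9% to 60.9%), 14 had one, with a median of 0.29. The 1 gene above 0 in the lower group was Qars, whose GC content was that of the retained-intron transcript Qars-215. For Nars2 a noncoding transcript was likewise used, so these GC values need not describe the coding messages. Across the 38 genes Spearman's rho of the ratio with GC content was 0.79 (Pearson's r 0.80), and across 15161 genes with known GC content it was 0.75 (0.56). These values describe genes measured in the same 2 libraries, and genes are not independent replicates. With DESeq2 size factors in place of TMM, Dars alone reached 2-fold, against 20.4% of all genes tested. With the GC trend of all genes removed, 0 of 38 synthetase genes reached 2-fold, against 8.65% of all genes tested, and the ratios ran from -0.78 (Yars2) to 0.82 (Mars2).

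**Figure D5:**
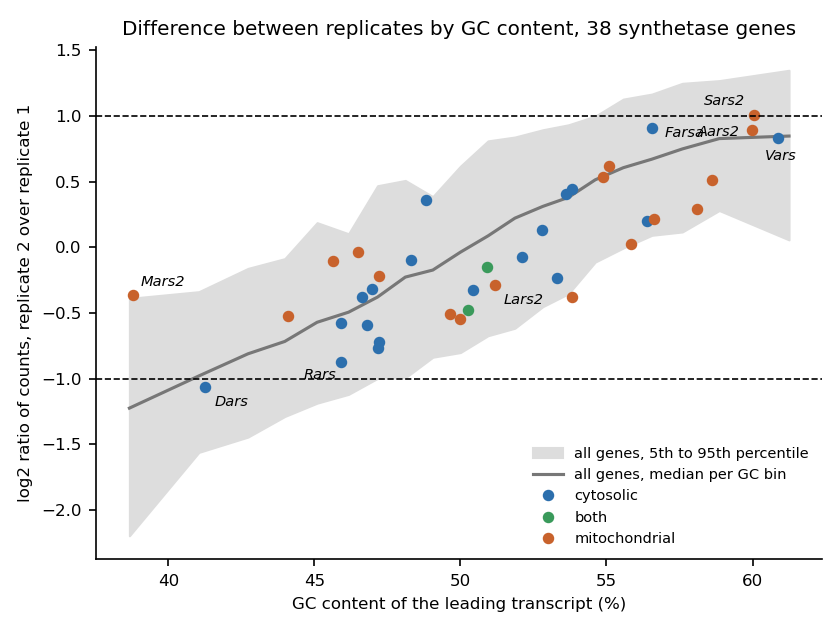
Log2 ratio of TMM-scaled counts, replicate 2 over replicate 1, against GC content of the leading transcript (in %) for the 38 synthetase genes, with the median (line) and the 5th to 95th percentile (band) of all genes with 200 or more counts over both libraries, in 20 GC bins; dashed lines mark 2-fold. Dars lies low at 41.2% GC and Sars2 high at 60.1% GC, both close to the line of all genes.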

How the data were processed

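Per the file headers and the accompanying text files, reads were aligned to mm10 and its transcriptome and quantified with GENCODE M4. Which aligner, quantifier and strand setting were used is not given in the sources used here. Expected counts, as deposited, are the authors' estimates of reads for each feature and need not be whole. The authors scaled TPM by effective length to a fixed sum and FPKM by effective length and fragments; the deposited percent column is a transcript's share of its gene's TPM. The deposited score columns hold the posterior SD of the count and TPM interval bounds.

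Features without a gene identifier (26345, with 0.0574% and 0.131% of counts and 2.93% and 6.24% of TPM) were left out, and TPM was not rescaled. Symbols, transcript classes and positions came from GENCODE M21 by identifier without version. Of 193 synthetase transcripts, 192 matched, 91 with the same version. Expected counts were rounded, genes with 20 or more counts over both libraries compared by log2 ratio (prior count 0.5), and 2-fold differences called. GC content, known for 99.4% of tested genes, was that of the leading transcript, and its trend a lowess curve (fraction 0.3). Genes named are members, other tRNA genes and cell type markers from lists, overlapping genes, and genes that share sequence with a member; Gm42418 was singled out after its values were seen. Members and lists were chosen with earlier results of these data known, and the promoter, shared-sequence and codon counts were added after the tables had been read. Windows of 31 bases were compared with all GENCODE M21 transcripts. Values of some single genes are not reported here, although these genes enter the counts and medians. Scaling was tested on simulated counts that held no GC trend, so that test does not cover the trend seen between these libraries. Software was R 4.3.3, edgeR 4.0.16, DESeq2 1.42.0 (size factors), Python 3.11.15, pandas 2.3.3, scipy 1.17.1 and statsmodels 0.14.6.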

Additional observations from a re-analysis of the deposited data

How the results depend on the processing

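The medians over genes, averaged over replicates, were 137 TPM for cytosolic and 26.5 for mitochondrial genes (log2 ratio 2.37). In FPKM they were 96.7 and 18.7. On protein-coding transcripts alone they were 109 and 14.1 TPM (log2 ratio 2.96). Without Lars2, a choice made after seeing the data, the mitochondrial median was 22.5 TPM and the log2 ratio 2.60. Leaving out each replicate in turn gave 135 to 139 TPM, 25.3 to 27.7 TPM and log2 ratios of 2.32 to 2.41. The count of 13 amino acids beyond the spread stayed at 13 in every alternative run except without replicate 2 (14). The amino acids behind it changed in part: tyrosine left on protein-coding transcripts and without replicate 2, and threonine was among those that entered without replicate 2. On protein-coding transcripts Cars over Cars2, within the spread, turned from 0.57 to -0.04. Detection gave 37 of 38 genes at 5 TPM, 33 at 10 TPM and 38 under the other settings. The 2 genes past 2-fold between replicates were 1 (Dars) with DESeq2 size factors and 0 with the GC trend removed, settings that called 20.4% and 8.65% of all genes tested. They were 3 with library totals (Farsa, Sars2, Aars2; 21.4% of all genes), 3 by deposited TPM (18.4%) and 10 at 1.5-fold, a limit passed by 50.3% of all genes tested. No paired analysis was possible because the labels give 1 group.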

Other observations

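The codons of the expressed messages were counted by amino acid, each transcript weighted by its TPM. Among nuclear-coded messages leucine codons were the most frequent, at 9.09% ± 0.148 of all codons (SD, n = 2), and tryptophan codons the least, at 0.997% ± 0.0285. Cars and Wars, the lowest cytosolic genes after Tarsl2, load the amino acids with the fewest codons, cysteine (1.69%) and tryptophan. Lars, for the most frequent amino acid, ranked below most cytosolic genes at 84.8 TPM, and Nars, for asparagine with 3.59% of codons, stood at 306 and 186 TPM. Across the 20 amino acids, Spearman's rho of codon share with the TPM of the cytosolic gene was 0.38 in replicate 1 and 0.11 in replicate 2.

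In the 13 messages of the mitochondrial genome leucine codons made up 14.7% ± 0.407 of codons, again the largest share, and Lars2 was the highest mitochondrial gene. Mars2, counted on a transcript of 11294 bases, was the lowest at 5.18 TPM although methionine had 6.32% of these codons. Cars2 stood at 36.7 TPM with 0.481%. Across the 17 amino acids with a mitochondrial gene rho was 0.08 and 0.11, and without Lars2 -0.11 and -0.07. The points share libraries, and codon shares and levels come from the same TPM tables.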
